A study of Mus musculus with 9 samples.

Results

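The immediate early response genes examined here were Fos, Fosl1, Jun, Junb, Egr1, Atf3, Ier2, Ier3, Dusp1 and Csrnp1, taken by symbol from the table of gene-level counts. All 10 were found among its 24736 genes, and all 10 entered every test. RNA from 9 cultures of mouse embryonic stem cells (ESCs) that had been differentiated to caudal epiblast-like cells (CEpiLCs) was sequenced. The study's methods derive all of its ESC lines from the HM1 TetON line. The groups were wild type (WT, the parental HM1 TetON line), cells lacking the caudal homeobox genes Cdx1, Cdx2 and Cdx4 (CdxKO, genotype Cdx1/2/4-/-) and cells mutant for the T-box gene T (T/BraKO, genotype T/Bra-/-), with biological replicates 1, 2 and 3 of each. Every culture had 2 days of N2B27 medium with 10 ng/ml bFGF and 5 uM LGK974, an inhibitor of WNT secretion, followed by the same medium plus CHIR99021, which inhibits GSK3 and so turns WNT signalling on, until harvest at 72 h. The labels name 1 genotype per mutant and no further line, so the mutation and the line that carries it cannot be told apart.

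Immediate early genes are the first to be transcribed when a cell meets a growth factor, serum, a change of medium or a stress, and they need no new protein synthesis for it. Kinases of the ERK, p38 and JNK pathways act on factors already bound at their promoters, chiefly SRF with its ternary complex partners and members of the CREB and ATF family. Many of the products are short-lived transcription factors. FOS and JUN family proteins pair to form AP-1, EGR1 is a zinc finger factor, and DUSP1 removes phosphate from the same kinases. In the epiblast, FGF signalling through ERK accompanies the exit from naive pluripotency and the making of the primitive streak.

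The libraries held 25124300 to 34705400 expected counts. The ribosomal RNA gene Rn45s took 1.69% to 4.21% of the counts in the libraries numbered 1 and 0.343% to 0.992% in the others. A list of 6 naive pluripotency markers summed to 132 to 178 TPM (a level scaled for transcript length and library depth) in the replicates numbered 2, against 46.2 to 72.2 in those numbered 1 and 87.1 to 99.4 in those numbered 3. Nanog gave a large part of this sum, with means of 62.3 TPM (WT), 84.1 (CdxKO) and 72.0 (T/BraKO). The 9 caudal epiblast markers, among them Nkx1-2, T and Cdx2, were above 0 in every library and summed to 1489 to 2462 TPM. Pou5f1, also on this list, gave a large part of the sum, with means of 880 TPM (WT), 1002 (CdxKO) and 1241 (T/BraKO). The sum hides differences between genotypes. T averaged 431, 467 and 78.9 TPM in WT, CdxKO and T/BraKO, and Cdx2 averaged 141, 34.5 and 175. A list of 6 fibroblast markers summed to 33.4 to 57.7 TPM in WT, 40.8 to 76.9 in CdxKO and 31.9 to 53.0 in T/BraKO. ESCs were grown on fibroblast feeders before differentiation. In bulk RNA, fewer cells of a type and less RNA per cell cannot be told apart. The T transcript persisted in T/BraKO (2295 ± 563 normalised counts against 12243 ± 2181 in WT, mean ± SD, n = 3). HM1 is known as a line deficient in Hprt, a purine salvage gene on the X chromosome. In normalised counts, Hprt stood at 21.7 ± 5.81 (WT), 22.4 ± 2.37 (CdxKO) and 3938 ± 303 (T/BraKO), so the T/BraKO libraries did not share this feature of the stated background.

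The start regions of the genes whose values divide the set are shown first, because these stretches are where signal-dependent factors are known to act. Of the 10 genes, 7 had a start region in the RefSeq table used (assembly GRCm38.p6, the same assembly as mm10), and the 250 bases before the start site are given for Fos, Jun, Dusp1 and Atf3. Fos and Jun are the founding partners of AP-1 and moved in opposite directions between replicate numbers. Dusp1 and Atf3 belong to the genes with separated CdxKO and WT libraries. The stretches are chr12:85473640-85473889 on the plus strand for Fos, chr4:95052223-95052472 on the minus strand for Jun, chr17:26508473-26508722 on the minus strand for Dusp1 and chr1:191183334-191183583 on the minus strand for Atf3. Each is written in the direction of transcription. Capitals mark the CRE core (TGACG or its reverse complement CGTCA), the TATA box (TATAAA or TTTATA), the AP-1 site (TGACTCA or TGAGTCA), the Jun-type AP-1 site (TGACATCA or TGATGTCA) and the CARE core (TTGCATCA or TGATGCAA).
Fos: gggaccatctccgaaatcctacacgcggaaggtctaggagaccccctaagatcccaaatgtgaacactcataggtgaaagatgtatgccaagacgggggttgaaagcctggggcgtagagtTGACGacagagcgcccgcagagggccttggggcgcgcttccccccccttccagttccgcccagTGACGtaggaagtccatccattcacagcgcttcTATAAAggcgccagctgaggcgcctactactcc
Jun: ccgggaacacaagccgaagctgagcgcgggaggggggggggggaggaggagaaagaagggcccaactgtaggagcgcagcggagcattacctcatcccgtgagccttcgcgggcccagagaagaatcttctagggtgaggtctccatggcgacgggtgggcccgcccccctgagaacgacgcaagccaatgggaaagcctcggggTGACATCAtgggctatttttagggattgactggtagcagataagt
Dusp1: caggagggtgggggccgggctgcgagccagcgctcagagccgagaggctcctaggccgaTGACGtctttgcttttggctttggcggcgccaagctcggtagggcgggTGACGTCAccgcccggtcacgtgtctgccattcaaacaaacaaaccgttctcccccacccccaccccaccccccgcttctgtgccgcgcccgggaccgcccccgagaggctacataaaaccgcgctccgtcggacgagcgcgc
Atf3: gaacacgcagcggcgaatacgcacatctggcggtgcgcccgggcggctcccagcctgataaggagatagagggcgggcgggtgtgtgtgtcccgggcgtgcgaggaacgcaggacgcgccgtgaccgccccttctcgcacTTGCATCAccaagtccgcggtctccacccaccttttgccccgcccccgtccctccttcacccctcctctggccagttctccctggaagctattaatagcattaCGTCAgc

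A CRE core is the core letters read by CREB and ATF proteins. It stood in the stretches of Fos (129 and 66 bases before the start site), Dusp1 (191, 143 and 140 bases) and Atf3 (7 bases), and also in those of Junb and Csrnp1, thus in 5 of the 7 genes with a sequence and in 17.9% of 27025 promoters of the same length. Csrnp1 had 4 start regions, of which only the first listed was searched. The 2 adjoining matches of Dusp1 overlap and form the full palindrome TGACGTCA, which 1.62% of promoters hold. A TATA box was found in Fos, 33 bases before the start site, and in 13% of promoters. The Jun stretch held the Jun-type AP-1 site 45 bases before the start site (3.02% of promoters), and the Atf3 stretch held the CARE core, known from targets of ATF4, 110 bases before it (0.818% of promoters). The last pair of motifs was searched for after the sequences had been read. The standard AP-1 site (4.43% of promoters) and the CArG box read by SRF (1.4% of promoters) had no match in these windows. Sites further upstream were not searched, nor were Egr1, Ier2 and Fosl1, which had no sequence, so this does not show that the genes lack such sites. These matches are letters in a window, and binding was not measured here.

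By level, Ier2, a growth factor-induced nuclear protein, was the most abundant, with 116 ± 24.3 TPM (mean ± SD over the 9 libraries). Egr1 followed with 76.4 ± 22.5 TPM. Jun and Junb, the JUN partners, had 41.6 ± 8.87 and 37.2 ± 7.98 TPM. Then came Atf3 with 28.1 ± 11.3 TPM, Dusp1 with 24.9 ± 6.39, Csrnp1 with 16.8 ± 4.48 and Ier3 with 15.98 ± 4.67. The FOS partners were the lowest, with 10.7 ± 3.36 TPM for Fos and 3.95 ± 2.10 for Fosl1, which encodes FRA1. Every neighbour in this order overlapped the next in its range over libraries. Ier2 (78.5 to 142 TPM) did not overlap Jun (28.2 to 53.1 TPM). The ratio of the highest to the lowest library, in normalised counts, ran from 1.84 for Jun to 10.6 for Fosl1, whose lowest library was WT replicate 2 with 18 expected counts.

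**Figure D1:**
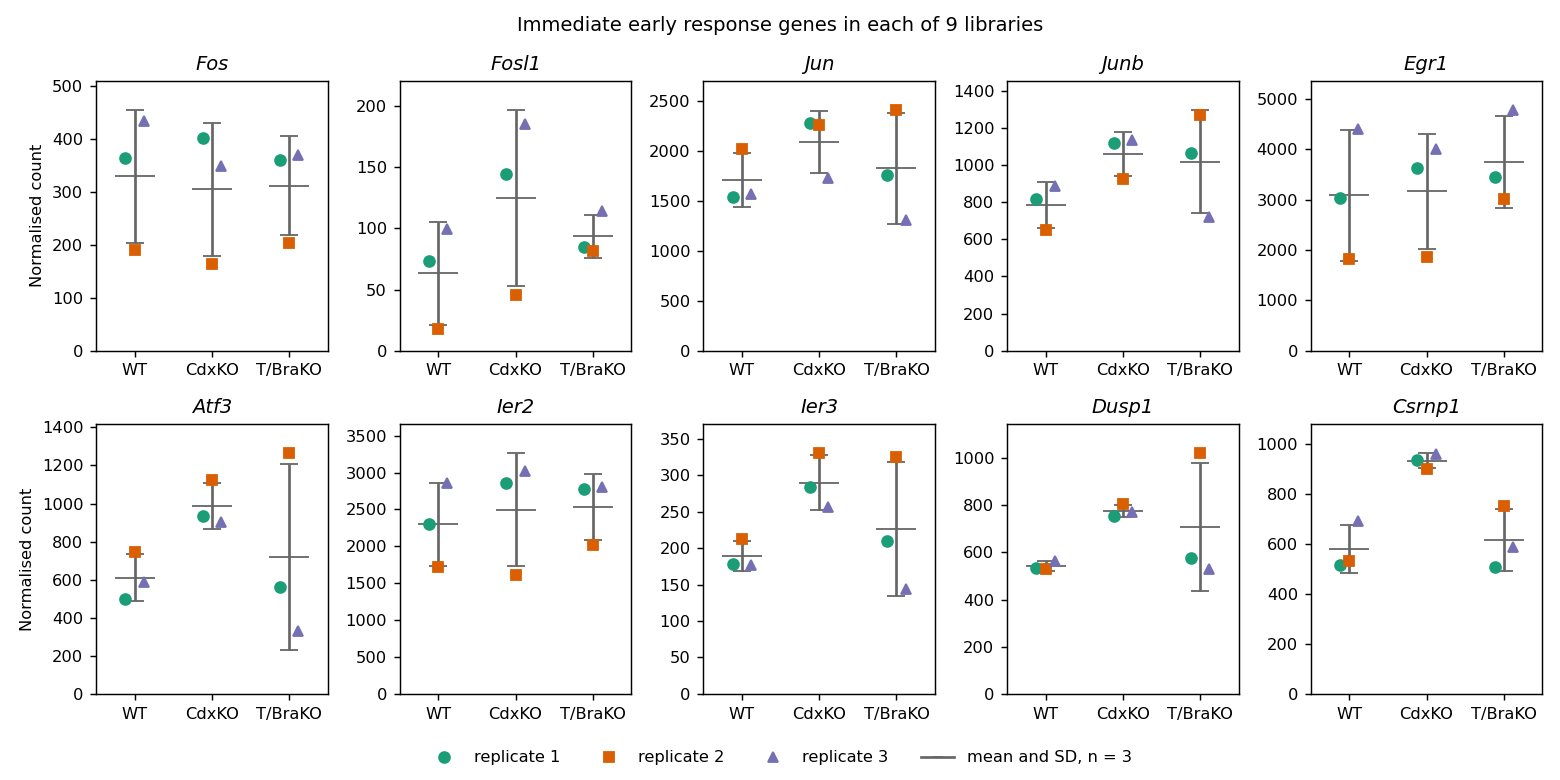
Normalised counts (y axis, from 0) of the 10 genes in each library, by genotype (x axis), with replicate numbers as colours and marker shapes and bars for mean and SD (n = 3). The replicate 2 squares are the lowest of their genotype for Fos, Fosl1, Egr1 and Ier2 and the highest for Atf3 and Ier3, while the CdxKO points of Csrnp1 (901 to 960) lie above all other libraries.

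The first question was whether the genes differ between CdxKO and WT cells. Csrnp1 was the only gene of the 10 called by DESeq2 with genotype as the only term, and the number of calls changed between fits. Csrnp1 (chr9:119971163-119984742) encodes a cysteine- and serine-rich nuclear protein that was first described as induced by AXIN1, a scaffold of the WNT pathway. It had 516, 533 and 690 normalised counts in WT replicates 1, 2 and 3 and 937, 901 and 960 in those of CdxKO. The CdxKO libraries were all above the WT libraries and varied little among themselves, with means of 933 ± 29.9 and 580 ± 95.7 (SD, n = 3). By the DESeq2 Wald test Csrnp1 was 1.61-fold higher in CdxKO, 0.68 on the log2 scale with an SE of 0.18 and an adjusted p of 0.0204. It was the only call among the 10 genes, where 0.693% of the 16737 genes tested were called. With the replicate number as a block, which compares libraries of the same number, 3 of the 10 were called and 5.31% of genes. Csrnp1 stood at 0.69 (SE 0.13, DESeq2 adjusted p 1.20e-05), Ier3, a stress-inducible gene tied to cell survival, rose by 0.61 (SE 0.18, adjusted p 0.0224), and Fosl1 rose by 1.01 (SE 0.33, adjusted p 0.0478).

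Without the block, a further 4 genes had separated libraries and no call. Junb, Atf3, Ier3, Dusp1 and Csrnp1 each had all CdxKO libraries above all WT libraries, 5 of 10 genes, against 5.59% of the 12316 genes averaging at least 50 normalised counts. Dusp1 (chr17:26505591-26508472), the kinase phosphatase, had 534, 528 and 565 normalised counts in WT and 754, 804 and 770 in CdxKO. The replicates of each group lay close together, at 543 ± 19.7 and 776 ± 25.9 (SD, n = 3). The log2 fold change of 0.52 (SE 0.23) had an adjusted p of 0.741 by DESeq2 with all 9 libraries, in which the T/BraKO libraries ranged from 532 to 1021. With T/BraKO replicate 2 left out, Dusp1 was called beside Csrnp1, where 0.86% of genes were called. A fit to the 6 CdxKO and WT libraries alone called Atf3, Dusp1 and Csrnp1, beside 0.776% of genes, and with the block, added after seeing the data, it called Fosl1, Junb, Atf3, Ier3, Dusp1 and Csrnp1, beside 5.05%.

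Atf3 (chr1:191170296-191183333), a bZIP factor of the ATF and CREB family that is known to rise under cell stress, had 499.6, 747 and 588 normalised counts in WT and 937, 1126 and 903 in CdxKO. Its log2 fold change was 0.69 (SE 0.39, DESeq2 adjusted p 0.9998). Ier3 (chr17:35821713-35822911) had 178, 213 and 177 in WT and 283, 330 and 256 in CdxKO. Within each number the CdxKO library of these genes was above its WT library. Junb (chr8:84976909-84978748) had 817, 648 and 888 in WT and 1120, 922 and 1135 in CdxKO, which differed by 0.43 on the log2 scale (SE 0.22, DESeq2 adjusted p 0.955).

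Fos, Egr1 and Ier2 gave small differences with wide errors. Their log2 fold changes between CdxKO and WT were -0.11 (95% interval -0.88 to 0.65), 0.04 (-0.63 to 0.71) and 0.12 (-0.40 to 0.63). The block narrowed the intervals to -0.42 to 0.16 for Fos and -0.07 to 0.27 for Ier2. Jun, with a log2 fold change of 0.29 (-0.15 to 0.73), was not called with the block either (adjusted p 0.0820 by DESeq2), although its CdxKO library was above its WT library within each number. Over the 10 genes the median log2 fold change was 0.47 with 9 positive values, beside -0.0023 for all genes tested. Medians of related lists, 1 of them as high, are given below.

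The Csrnp1 call rested on most of the libraries. No gene of the set was called by DESeq2 without the block when WT replicate 1, WT replicate 2 or any CdxKO library was left out (Csrnp1 log2 fold change 0.61 to 0.83 over single omissions). For this comparison edgeR's quasi-likelihood test called 0 (3 at an unadjusted p under 0.05), beside 0.11% of genes. With the block, in fits added after seeing the data, Csrnp1 was called in 9 of 9 (log2 fold change 0.58 to 0.84), Ier3 in 4, Jun in 3, Fosl1, Junb and Dusp1 in 2 each, and Atf3 in 1. Over these fits 2.00% to 6.41% of genes were called.

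**Figure D2:**
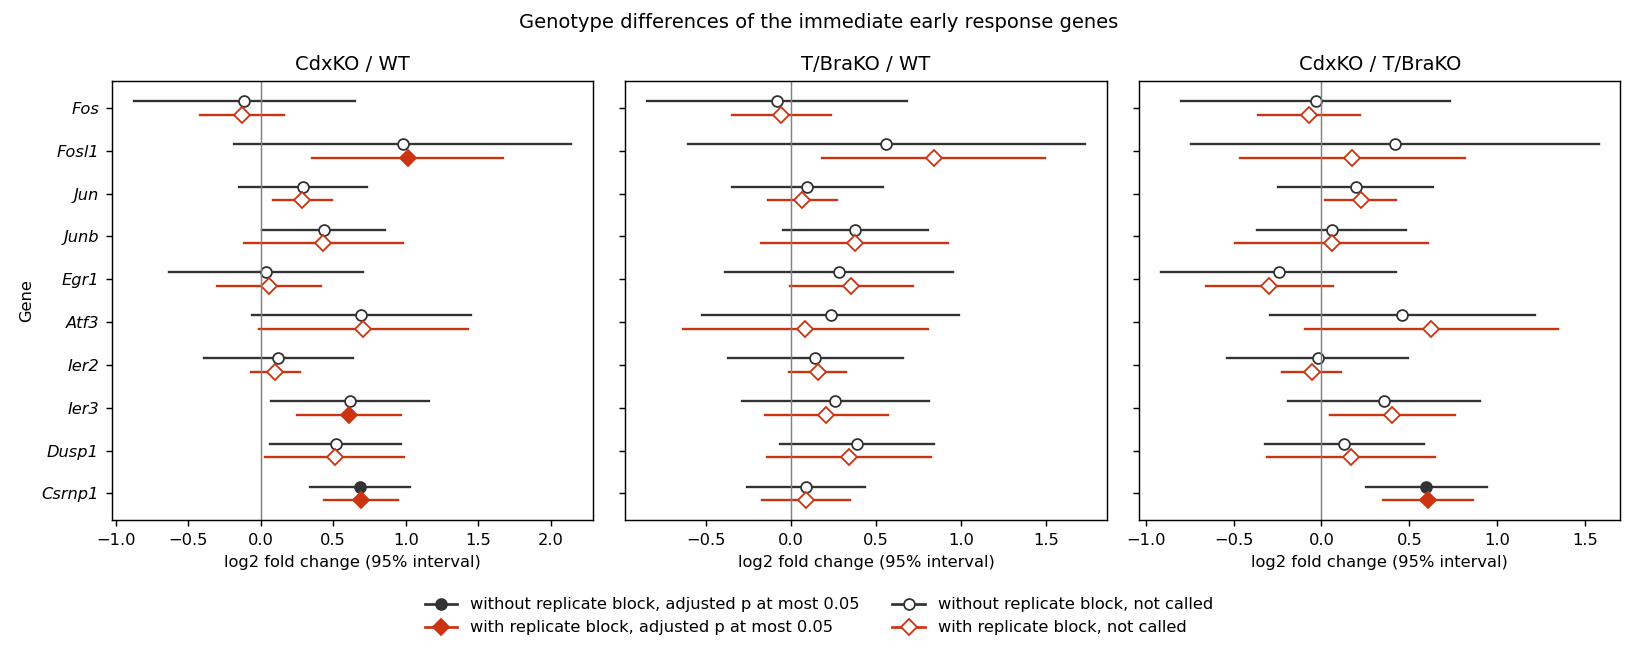
Log2 fold changes (x axis) of the 10 genes (y axis) with 95% intervals for each pair of genotypes, by DESeq2 on 9 libraries, without the replicate block (circles) and with it (diamonds). Filled symbols have an adjusted p of at most 0.05. Csrnp1 is filled for CdxKO against WT (0.68) and against T/BraKO (0.60), and no gene is filled for T/BraKO against WT.

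Between T/BraKO and WT the groups overlapped for all 10 genes, while 4.54% of 12316 genes had all T/BraKO libraries above and 5.38% all below. DESeq2 called 0 of them, with 0 at an unadjusted p under 0.05, and edgeR likewise gave 0 and 0, where DESeq2 called 1.08% of the 18900 genes tested and edgeR 0.385%. With the block the count was again 0, beside 9.68% of genes. Csrnp1 had 507, 753 and 587 normalised counts in T/BraKO, a log2 fold change of 0.09 with a 95% interval of -0.26 to 0.43. Fosl1, the gene with the largest value here, had a log2 fold change of 0.56 (-0.61 to 1.73), and 0.84 (0.18 to 1.49, DESeq2 adjusted p 0.0978) with the block. The median over the set was 0.25. With the block and without T/BraKO replicate 3, a fit added after seeing the data, Junb was called, beside 4.48% of genes.

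The mutants were also compared directly. Csrnp1 was 1.51-fold higher in CdxKO than in T/BraKO (log2 fold change 0.60, SE 0.18, DESeq2 adjusted p 0.0238), again with no overlap (7.89% of 12316 genes were separated this way). It was the only call among the 10 genes beside 3.48% of the 16016 genes tested. By edgeR it was not called: 0 of the 10 genes were (1 at an unadjusted p under 0.05), beside 1.63% of genes. With the block its adjusted p was 7.88e-05 and it remained the only call, beside 14.6% of genes. Without the block the call was lost when T/BraKO replicate 1 or 3 or any CdxKO library was left out (log2 fold change 0.48 to 0.77 over single omissions). With the block it held in 9 of 9 such fits, added after seeing the data. Its separation from T/BraKO shares the CdxKO libraries with the comparison against WT.

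For Jun, Junb, Atf3, Ier3, Dusp1 and Csrnp1 the T/BraKO libraries spread more widely than those of WT or CdxKO. T/BraKO replicate 2 was the highest of all 9 libraries for Jun, Junb, Atf3 and Dusp1, 4 of 10 genes, against 11.2% of genes. Within its genotype it was also the highest for Ier3 and Csrnp1, 6 of 10 against 37.4% of genes. Atf3 had 562, 1265 and 330 normalised counts in T/BraKO replicates 1, 2 and 3. Dusp1 had 575, 1021 and 532, and Junb had 1067, 1269 and 718. T/BraKO replicate 3 was the lowest of all 9 libraries for Jun, Atf3 and Ier3, 3 of 10 genes, against 16.5% of genes. WT replicate 2 was the lowest for Fosl1, Junb, Egr1 and Dusp1. Of single libraries, only T/BraKO replicates 2 and 3 were set against all genes in this way. The coefficient of variation of Atf3 was 67.7% in T/BraKO and 12.2% in CdxKO. For Fos, Fosl1, Egr1 and Ier2 it was smallest in T/BraKO (30.1%, 19.0%, 24.5% and 17.7%). When T/BraKO replicate 2 was left out, DESeq2 called 4 genes higher in CdxKO than in T/BraKO (Atf3, Ier3, Dusp1 and Csrnp1) without the block, beside 4.24% of genes, and 5 with it, beside 12.3%. Fos, Fosl1, Egr1 and Ier2 were, in T/BraKO replicate 2, the lowest of their genotype.

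The genes were also compared between replicate numbers. What a shared number stands for in the cultures is not given in the sources used here. Same-numbered libraries deviated together across genes, and the contrasts of replicate numbers were fitted with genotype as a term. Between replicates 1 and 2, 5 of the 10 genes were called by DESeq2, 4 higher and 1 lower in replicate 1. Of the 14215 genes tested, 30.4% were called, 16.6% higher and 13.8% lower. Between replicates 3 and 2, 7 were called, 4 higher and 3 lower in replicate 3, and of 14936 genes 41.9% were called, 21.8% higher and 20.1% lower. Groups did not overlap for 3 genes between replicates 1 and 2 (Fos, Egr1 and Ier2, all higher in 1, beside 19.8% of 12316 genes). They did not overlap for 5 between 3 and 2 (Fos, Fosl1, Egr1 and Ier2 higher in 3, beside 26.9%, and Jun lower, beside 24.6%). Between replicates 1 and 3, 0 were called (2 at an unadjusted p under 0.05, and edgeR gave 0 and 2), beside 17.2% of 13855 genes by DESeq2 and 20.7% by edgeR.

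Fos (chr12:85473890-85477274), the founding FOS member, had 363, 191 and 434 normalised counts in WT replicates 1, 2 and 3. It had 401, 163 and 350 in CdxKO and 361, 203 and 370 in T/BraKO. In every genotype replicate 2 was the lowest, and no replicate 2 library reached any other. Fos was higher in replicate 1 than in 2 by a log2 fold change of 1.02 (SE 0.15, DESeq2 adjusted p 9.15e-10) and in replicate 3 than in 2 by 1.05 (SE 0.15, adjusted p 5.01e-11), about 2-fold each. The value for replicate 1 against 3 was -0.03 with a 95% interval of -0.32 to 0.25.

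Ier2 (chr8:84661331-84662852) had 2308, 1723 and 2858 normalised counts in WT, 2855, 1614 and 3017 in CdxKO and 2782, 2015 and 2805 in T/BraKO. Replicate 2 was again the lowest in each genotype and did not overlap the other numbers. The log2 fold changes were 0.57 for replicate 1 against 2 (SE 0.087, DESeq2 adjusted p 2.78e-09) and 0.70 for 3 against 2 (SE 0.086, adjusted p 1.86e-14).

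Egr1, on chromosome 18, had 3037, 1815 and 4409 normalised counts in WT, 3637, 1871 and 4002 in CdxKO and 3453, 3022 and 4786 in T/BraKO. Its replicate 2 libraries were below the others, and its replicate 1 libraries were below those of replicate 3. The log2 fold changes were 0.63 for replicate 1 against 2 (SE 0.18, DESeq2 adjusted p 0.00411) and 1.01 for 3 against 2 (SE 0.18, adjusted p 4.46e-07). For 1 against 3 the value was -0.38 (adjusted p 0.148).

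Fosl1 (chr19:5447698-5455938) had 73.1, 17.4 and 99.8 normalised counts in WT, 144, 45.5 and 185 in CdxKO and 84.9, 81.5 and 114 in T/BraKO. In T/BraKO replicates 1 and 2 were close. The log2 fold changes were 1.13 for replicate 1 against 2 (SE 0.34, DESeq2 adjusted p 0.00496) and 1.54 for 3 against 2 (SE 0.33, adjusted p 2.50e-05). Fos, Fosl1, Egr1 and Ier2 were thus lowest in replicate 2 in all 3 genotypes, 4 of 10 genes, as were 26.0% of the 12316 genes averaging at least 50.

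Jun (chr4:95049036-95052222), the main JUN partner, had 1542, 2020 and 1567 normalised counts in WT, 2280, 2258 and 1728 in CdxKO and 1760, 2409 and 1308 in T/BraKO. Replicate 2 was the highest in WT and T/BraKO, and every replicate 3 library was below every replicate 2 library. Jun was lower in replicate 1 than in 2 by a log2 fold change of -0.28 (SE 0.10, DESeq2 adjusted p 0.0277) and in replicate 3 than in 2 by -0.54 (SE 0.10, adjusted p 1.11e-06). The first of these calls was lost when WT replicate 1, WT replicate 2, CdxKO replicate 3, T/BraKO replicate 1 or T/BraKO replicate 2 was left out (log2 fold change -0.39 to -0.14 over the 9 omissions).

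Atf3 and Ier3 were the highest in replicate 2 in all 3 genotypes, 2 of 10 genes beside 23.1% of genes. Both were lower in replicate 3 than in 2, Atf3 by a log2 fold change of -0.86 (SE 0.37, DESeq2 adjusted p 0.0477) and Ier3 by -0.60 (SE 0.18, adjusted p 0.00373). Neither call held without T/BraKO replicate 2, the Atf3 call was also lost without WT replicate 1, WT replicate 2, CdxKO replicate 1, CdxKO replicate 3 or T/BraKO replicate 1, and the Ier3 call without T/BraKO replicate 3. Over single omissions the log2 fold changes were -1.10 to -0.46 for Atf3 and -0.73 to -0.38 for Ier3. Between replicates 1 and 2 their values were -0.71 (adjusted p 0.130) and -0.38 (adjusted p 0.0991).

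Junb, Dusp1 and Csrnp1 were not called in any contrast of replicate numbers with all libraries in the fit. Their log2 fold changes for 3 against 2 were -0.02 (95% interval -0.57 to 0.53), -0.32 (-0.80 to 0.16) and 0.03 (-0.22 to 0.28). Without WT replicate 2, Dusp1 was called in both contrasts against replicate 2. Without T/BraKO replicate 2, Junb was called for 1 against 2.

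Over single left-out libraries, Fos and Ier2 kept both calls in 9 of 9 fits. Egr1 and Fosl1 kept the call of 3 against 2 in 9 of 9. Their calls of 1 against 2 held in 6 and in 5 fits. Both were lost without WT replicate 2, CdxKO replicate 1 or CdxKO replicate 2, and Fosl1 also without WT replicate 1. The log2 fold changes ran from 0.48 to 0.83 for Egr1 and from 0.79 to 1.82 for Fosl1.

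**Figure D3:**
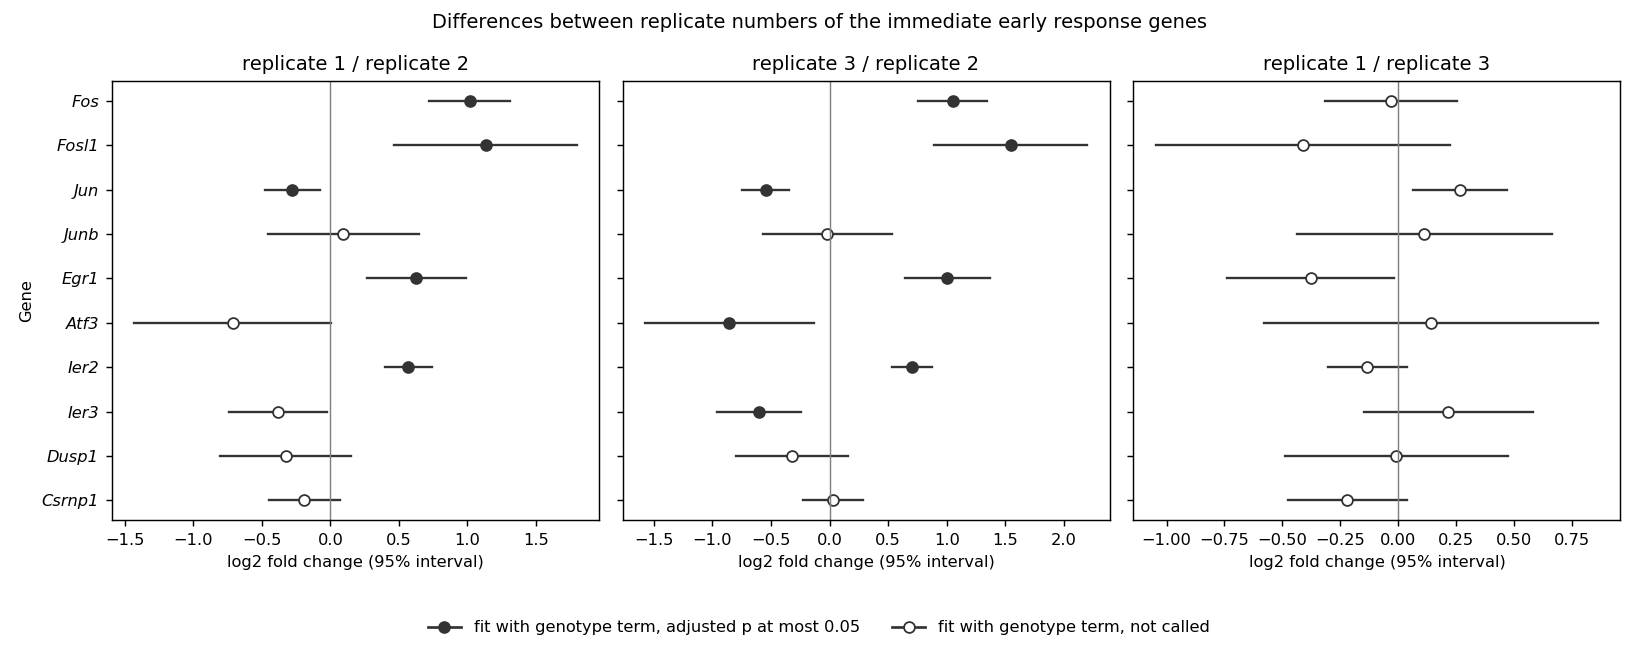
Log2 fold changes (x axis) between replicate numbers of the 10 genes (y axis) with 95% intervals, by DESeq2 with genotype as a term on 9 libraries, filled where the adjusted p is at most 0.05. Fos, Fosl1, Egr1 and Ier2 are filled to the right of 0 in the panels against replicate 2 and Jun to the left, and no gene is filled for 1 against 3.

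Lists of related genes were read the same way. Genes counted as higher or lower in these lists are those called by DESeq2 at an adjusted p of at most 0.05. Over all genes tested, 16.6% were called higher and 13.8% lower in replicate 1 against 2. In replicate 3 against 2 these shares were 21.8% and 20.1%. The ERK feedback and ETS target genes, among them Spry4 and Dusp4, which damp ERK signalling, and Etv4 and Etv5, ETS factors downstream of FGF, had 11 of 12 members higher in replicate 1 than in 2 (median log2 fold change 0.76, beside 0.0080 for all genes tested). In replicate 3 against 2, 10 of 12 were called higher and all 12 had a positive value (median 1.15, beside -0.0032). Etv4 stood at 1.77, Spry4 at 2.61, Dusp4 at 1.08 and Etv5 at 1.41. Of 10 cytoskeletal target genes of SRF with its MRTF cofactors, 9 were called lower in both contrasts (medians -0.59 and -0.91). All 10 had a negative value in both. Smooth muscle actin Acta2 had -1.67 and the myosin light chain Myl9 -1.36 in replicate 3 against 2. The naive pluripotency markers were at their highest summed level in replicate 2, as given above, and Nanog gave a large part of that sum. Klf4, also on that list, was not called in either contrast. The part of these markers in the values of the immediate early genes was not tested.

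Other immediate early genes went both ways. Of 31, 9 were called higher and 5 lower in replicate 1 against 2, beside 16.6% and 13.8% of all genes tested. In replicate 3 against 2, 10 were called higher and 8 lower, beside 21.8% and 20.1%. Sgk1, a growth factor-induced kinase, had 1.18 and 1.03, Klf10, a TGF-beta-induced factor, -0.68 and -0.68, and Btg2, an antiproliferative gene, -0.45 and -0.83 on the log2 scale. Gadd45b, a stress sensor, had -3.35 in replicate 3 against 2. Of the remaining AP-1 and related bZIP genes, 1 of 10 tested was higher in replicate 1 than in 2 (Atf2 at 0.24), and in replicate 3 against 2, 2 were higher (Fosb at 1.68 among them) and 3 lower (Atf7 at -0.51, Fosl2 at -0.47 and Jund at -0.46). The regulators themselves, SRF, its ternary complex partners, MRTF cofactors and CREB factors, had 2 of 8 higher in replicate 1 than in 2 (Elk3 at 0.54 and Mkl1 at 0.23) and 1 higher and 1 lower in replicate 3 than in 2 (Atf1 at 0.31 and Elk1 at -0.31).

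Heat shock genes had 1 of 8 called higher and 1 lower in replicate 1 against 2, beside 16.6% and 13.8% of all genes tested. In replicate 3 against 2, 6 were called higher and 1 lower, beside 21.8% and 20.1%. There the chaperone Hsph1 had 0.75 and the small heat shock gene Hspb1 -0.83. Genes of the integrated stress response, the ATF4 pathway, had 1 of 10 higher and 3 lower in replicate 1 against 2 and 3 higher and 2 lower in replicate 3 against 2. Ddit4, an inhibitor of mTORC1, was lower in both (-0.68 and -0.81), whereas Atf4 itself was higher in replicate 3 than in 2 (0.49).

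Between CdxKO and WT, the calls in these lists were fewer. Klf4 (0.62, DESeq2 adjusted p 0.0267) and the Polo-like kinase Plk3 (0.71, adjusted p 0.0321) were higher among the 31 other immediate early genes, of which 28 had a positive value (median 0.32). Over all genes tested, 0.335% were called higher. With the block, where 3.4% of all genes were called higher and 1.91% lower, 9 of the 31 were higher, among them Plk2, Sgk1, Plk3 and Hbegf (0.36, 0.52, 0.72 and 0.87). The medians of the other lists ran from -0.0026 (regulators) to 0.50 (integrated stress response), beside 0.47 for the 10 members. The cytoskeletal targets had 0.29, with all 10 values positive. No member of these other lists was called without the block. With it, Fosl2 rose by 0.61 (adjusted p 8.99e-06) among 10 AP-1 and related genes tested, 4 of 10 genes of the integrated stress response were higher (Atf4 at 0.47, Atf5 at 0.55, Asns at 0.52 and Sesn2 at 0.21), 5 of 10 cytoskeletal targets were higher, and the ERK feedback and the heat shock list had 1 call each (Dusp5 at 0.84 and Hspb1 at 0.84). The SRF, ternary complex and CREB regulators had none, Elk3 having the smallest unadjusted p of 0.0101. Summed fibroblast markers were 33.4 to 57.7 TPM in WT and 40.8 to 76.9 in CdxKO, where the mean of Col1a1 was higher and that of Thy1 lower. Naive markers, Klf4 among them, summed to 46.2 to 136 in WT and 72.2 to 178 in CdxKO. The part of both marker lists in these values was not tested.

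Between T/BraKO and WT no member of the 7 lists was called without the block. With it, where 4.83% of all genes were called higher and 4.85% lower, 3 of 30 other immediate early genes were higher (Arc at 0.60, Sik1 at 0.36 and Errfi1 at 0.31), as were 3 of 8 heat shock genes, among them Hspb1 at 0.64. The ERK feedback list had 2 higher (Etv4 at 0.52 and Spred1 at 0.24) and 2 lower (Dusp4 at -0.45 and Spred2 at -0.23). Of the regulators, Srf itself had 0.27 and Elk3 -0.52, both called. The cytoskeletal targets had 3 higher and 1 lower, the integrated stress response 0 higher and 1 lower (Ddit4 at -0.21), and the AP-1 and related genes no call, Jund having the smallest unadjusted p of 0.0371. Between CdxKO and T/BraKO, Elk3 (0.86, DESeq2 adjusted p 0.0145) was the only call in the lists without the block. With the block, where 7.75% of all genes were called higher and 6.9% lower, the integrated stress response had 5 of 10 higher (Ddit4 at 0.40 and Sesn2 at 0.38 among them), the other immediate early genes 5 higher and 1 lower (Sgk1 at 0.80, Arc at -0.47), the AP-1 and related genes 2 higher (Fosl2 at 0.53 and Jdp2 at 0.88), the cytoskeletal targets 3 higher, the ERK feedback list 2 higher and 1 lower, the regulators 1 higher and 2 lower, and the heat shock list 1 lower.

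**Figure D4:**
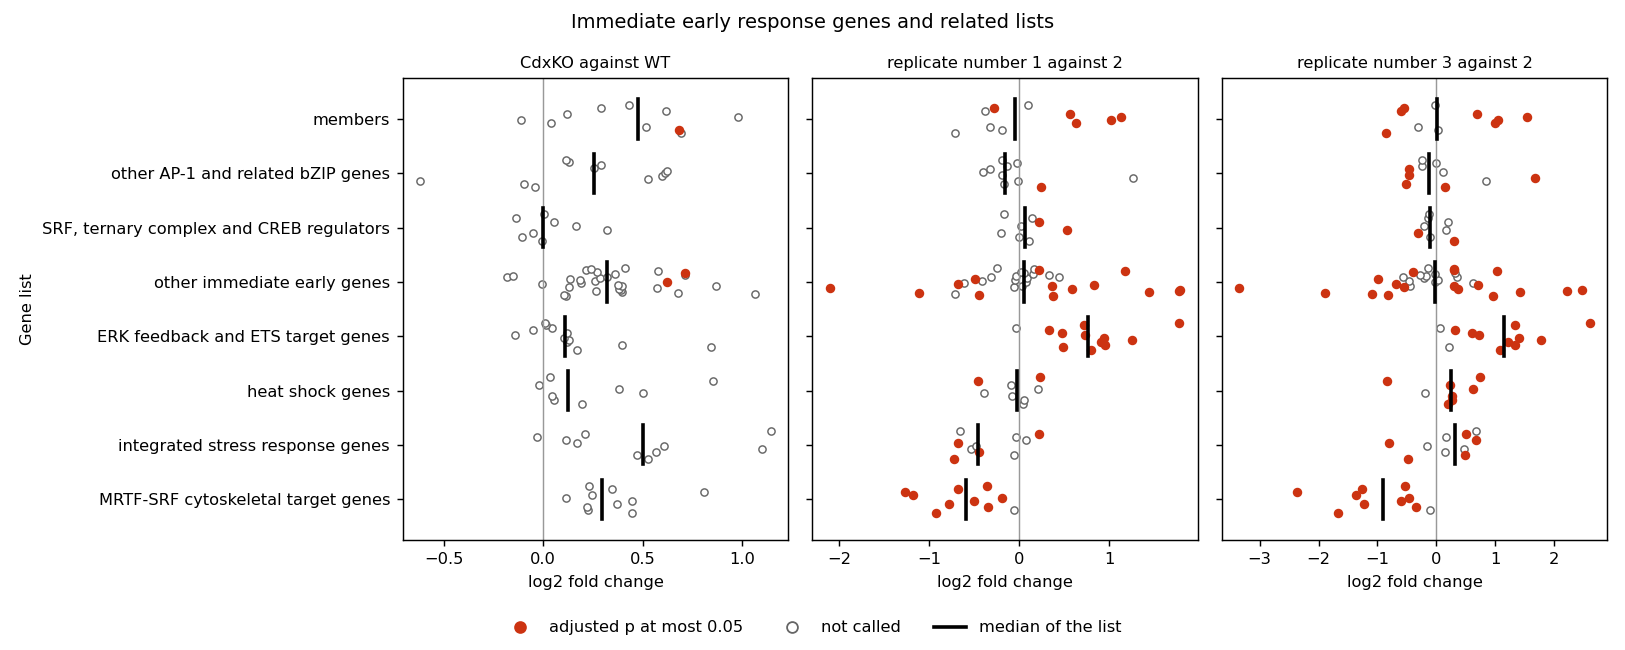
Log2 fold changes (x axis) of each tested gene of 8 lists (y axis, the 10 genes described here on top as members) in CdxKO against WT, replicate 1 against 2 and replicate 3 against 2, by DESeq2. Red points have an adjusted p of at most 0.05 and black bars are list medians. The ERK feedback list lies to the right of 0 in both replicate panels (medians 0.76 and 1.15) and the cytoskeletal list to the left (-0.59 and -0.91), while the members lie on both sides.

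Patterns over the 9 libraries were compared by the root mean square difference of centred log2 values over 12316 genes. Nearest to the mean of the 10 genes were Klf5 (0.10), Adamts1 (0.12), Slc20a1 (0.13), Coq10b (0.13) and Tubb3 (0.14), where the mean pattern itself had an SD of 0.28. The profiles of Fos and Atf3 were added after the data had been seen. Nearest to Fos were 1700086O06Rik, Cx3cl1, Mt1, Npcd and Syt11 (0.08 to 0.16). Within the set, Ier2 ranked 54 and Egr1 101 by likeness to Fos, while Atf3 ranked 11980 of 12315. Nearest to Atf3 were Gm7694, Ier3, Tnfrsf12a, Creb5 and Ctgf (0.18 to 0.25), with Ier3 ranked 2, Jun 76 and Dusp1 95 of 12315. These 9 points share genotypes and replicate numbers, and the ranks are a description.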

How the data were processed

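Per the labels and the study's methods, the authors trimmed 76 bp single-end stranded reads with cutadapt 1.16 and quantified RefSeq genes of mm10 with RSEM 1.3.0 and STAR 2.5.2a. The deposited table holds expected counts per gene, and the authors' TPM values in the same table served for levels between genes. Expected counts were rounded (3.75% to 4.00% of values were fractional) and tested over all genes with DESeq2 1.42.0 (Wald test, Benjamini-Hochberg adjusted p of at most 0.05) in R 4.3.3, with genotype as the term on 9 libraries, or genotype and replicate number for replicate contrasts. Normalised counts were divided by DESeq2 size factors. The alternative test was the quasi-likelihood test of edgeR 4.0.16. Intervals are 95% Wald intervals. A floor of 3 counts was 0.0864 to 0.119 CPM.

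Groups and numbers came from the labels, which call the replicates biological and do not say what a number marks. Deviations from group means correlated in all 9 same-number pairs (r 0.532 to 0.814 over 12316 genes), so the number was also fitted as a block. The mean of -0.34 for 18 pairs of different numbers largely follows from these values, because deviations within a genotype sum to 0.

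The members and lists were chosen with earlier results of these data known. All 10 members were named, with up to 4 genes of each list by smallest unadjusted p and 5 by likeness of pattern (log2 of normalised count plus 1, mean of at least 50). The 7 lists were other AP-1 genes, regulators, other immediate early genes, ERK feedback, heat shock, integrated stress response and cytoskeletal targets. On simulated counts, 200 of 14261 genes were changed by a log2 size of 1. DESeq2 recovered 86% for CdxKO against WT and 81.5% for the replicate contrast, with 13 and 16 false calls. These shares hold for those counts only. In the real libraries the SE for CdxKO against WT, without the block, ran from 0.18 (Csrnp1) to 0.59 (Fosl1) over the 10 members. Recovery at these errors was not tested.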

Additional observations from a re-analysis of the deposited data

Results flagged for a closer look

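The values of Csrnp1 in the mutants were tested against each other. Its log2 fold change for CdxKO against T/BraKO was 0.60 (DESeq2 adjusted p 0.0238), which is the test of the difference between the mutants' values against the shared WT libraries (0.68 for CdxKO and 0.09 for T/BraKO). All 3 CdxKO libraries were above all 3 T/BraKO libraries. The call was not made by edgeR (0 of the 10 genes called) and held in 4 of 9 DESeq2 fits that left out a single library, without the replicate block.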

How the results depend on the processing

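Scaling with TMM factors, a filter on low counts (at least 10 in 3 libraries) and leaving out Rn45s, the last added after seeing the data, changed no count of called members. For CdxKO against WT, 1 member was called, 3 with the replicate block, 0 with edgeR, 3 with the 6 libraries compared, 6 with those and the block (added after seeing the data), and 0 to 2 with single libraries left out. The 2 calls came without T/BraKO replicate 2, beside 0.86% of all genes. For CdxKO against T/BraKO, 1 was called, 0 with edgeR and 0 to 4 with single libraries left out. The 4 calls came without the same library, beside 4.24% of all genes. The block added the calls of Fosl1 and Ier3 and changed no other call of a member. With it, single omissions (added after seeing the data) gave 1 to 6 for CdxKO against WT (2.00% to 6.41% of all genes), 0 to 1 for T/BraKO against WT (3.52% to 8.36%) and 1 to 5 for CdxKO against T/BraKO (8.86% to 13.7%). For replicate 1 against 2, edgeR (17.6% of all genes lower) and a fit with no genotype term called 0 lower in place of 1, and single omissions gave 2 to 5 higher and 0 to 2 lower. For replicate 3 against 2, the fit with no genotype term called 1 lower in place of 3, and single omissions gave 1 to 3. For replicate 1 against 3, they gave 0 to 1 higher and 0 to 1 lower. For the fit with no genotype term and for single omissions in these replicate contrasts, no shares over all genes are given, so these counts lack a background.

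Members that were not called changed sign when single libraries were left out, and the cause was not tested. For CdxKO against WT the log2 ranges were -0.39 to 0.19 (Fos), -0.23 to 0.39 (Egr1) and -0.049 to 0.36 (Ier2). For T/BraKO against WT they were -0.36 to 0.17 (Fos), -0.16 to 0.28 (Jun), -0.46 to 0.58 (Atf3), -0.028 to 0.33 (Ier2), -0.10 to 0.50 (Ier3) and -0.085 to 0.23 (Csrnp1). For CdxKO against T/BraKO they were -0.28 to 0.27 (Fos), -0.14 to 0.25 (Junb), -0.45 to 0.028 (Egr1), -0.18 to 0.21 (Ier2) and -0.040 to 0.49 (Dusp1). For replicate 1 against 2 they were -0.069 to 0.42 (Junb) and -0.31 to 0.012 (Csrnp1), and for 3 against 2, -0.20 to 0.28 (Junb) and -0.11 to 0.23 (Csrnp1). For 1 against 3 they were -0.16 to 0.063 (Fos), -0.16 to 0.30 (Junb), -0.21 to 0.39 (Atf3) and -0.19 to 0.12 (Dusp1). Depth limits Fosl1 most, with 18 expected counts in its lowest library.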
